A study of Mus musculus with 12 samples.

Results

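The genes described here encode the outer layer of Wnt signaling, that is, the ligands, their receptors and the proteins that modulate them outside the cell or at its surface. They were chosen by gene symbol alone, with no measured value in the rule. The rule took the Wnt, Fzd, Ror, Sfrp, Dkk, Rspo and Kremen families, *Lrp5*, *Lrp6*, *Lgr4*, *Lgr5*, *Lgr6*, *Ryk*, *Wif1*, *Znrf3*, *Rnf43*, *Porcn*, *Wls*, *Notum*, *Apcdd1* and *Ndp*. Of the 15687 genes measured, 46 matched. The mouse annotation holds 59 protein-coding genes that match, and the other 13 (*Dkk4*, *Fzd10*, *Rspo1*, *Rspo2*, *Rspo4*, *Sfrp5*, *Wnt1*, *Wnt16*, *Wnt3*, *Wnt3a*, *Wnt8a*, *Wnt8b* and *Wnt9b*) were not analysed here.

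RNA was sequenced from 12 tumors of the mouse lung cancer line mTc11, injected in Matrigel under the skin of 8-week-old male C57BL6/J mice and harvested at day 24. The 6 CTL tumors carried a control shRNA (shControl) and the other 6, the KD tumors (*Filip1l* knockdown), carried an shRNA against *Filip1l*, both from lentivirus, in mixed puromycin-selected clones. The study made knockdown lines with more than one *Filip1l* target, and its text does not say which one the sequenced tumors carried. Of 8 lung epithelial markers 5 were measured, and they summed to 1017 to 2741 normalized counts in CTL tumors. *Sftpd* (832 to 2408) and *Napsa* (183 to 293) made up most of that, while *Sftpc* was at 0 to 53.0, *Nkx2-1* at 0.947 to 37.3 and *Sftpb* at 0.947 to 94.1. Values are normalized counts, that is, reads per gene divided by a size factor of each tumor, so they compare between tumors for 1 gene. Levels of different genes are compared only as normalized counts per kb of exon. The totals came to 17834745 to 29502069 reads on listed genes in CTL tumors and 25460564 to 32419578 in KD tumors. *Filip1l* itself averaged 2311 ± 211 normalized counts in CTL and 1924 ± 165 in KD tumors (SD, n = 6 each), and the log2 fold change was -0.26 (limma adjusted p = 0.00998). The *Filip1l* groups overlapped, with KD replicate 1 at 2184 and CTL replicate 6 at 1983. Whole tumors were sequenced, host cells included, so fewer cells of a type and less RNA per cell cannot be told apart.

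Wnt proteins are lipid-modified by Porcupine, carried to the surface by Wntless, and bind frizzled receptors. With the co-receptors Lrp5 and Lrp6 they stabilize β-catenin, which activates target genes together with TCF/LEF factors, and with Ror1, Ror2 or Ryk they act mainly without β-catenin. Secreted frizzled-related proteins and Wif1 bind Wnt ligands, Dickkopf proteins block Lrp5 and Lrp6, and the ligases Rnf43 and Znrf3 remove frizzled receptors unless R-spondins and Lgr receptors counter them. In the lung the pathway is known for its part in branching and in the upkeep of alveolar stem cells.

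The outer layer of the pathway was lower in KD tumors at many points, with a few large exceptions. The ligands *Wnt6*, *Ndp*, *Wnt5a*, *Wnt2b*, *Wnt7b* and *Wnt9a*, the frizzleds *Fzd6* and *Fzd3*, the receptor *Ror1*, and the inhibitors *Dkk1*, *Apcdd1* and *Notum* fell past the limit used here, as did *Lgr6*. Apart from *Dkk1*, which was near 0 in KD tumors, their CTL means were from 1.99 (*Ror1*) to 4.93 (*Wnt6*) times the knockdown means. The R-spondin receptor *Lgr4*, the Dickkopf receptor *Kremen2* and the ligand *Wnt5b* were higher. Genes are called here when the adjusted p of limma, over all genes, is under 0.05 and the log2 fold change is over 1 in size, and "fell" and "rose" are used of genes with an adjusted p under 0.05. By that rule 16 of the 46 genes were called (34.8%), where 10.2% of all genes tested were called. The 13 called lower made up 28.3% of the 46 against 3.97% of all genes, and the 3 called higher made up 6.52% against 6.2%.

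At an adjusted p under 0.05 and any size of change, 25 of the 46 fell (54.3%, against 20.7% of all genes) and 6 rose (13%, against 21.1%), together 31 (67.4%, against 41.9%). In 17 genes the 6 CTL and 6 *Filip1l*-knockdown values did not overlap (37%, against 21.5%), with 15 lower (32.6%, against 10.9%) and 2 higher (4.35%, against 10.6%). The median log2 fold change of the 46 genes was -0.54 and that of all genes 0.01, and 35 of the 46 (76.1%) lay below 0 against 49.1% of all genes. The 16 called genes were spread over 12 chromosomes.

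**Figure D1:**
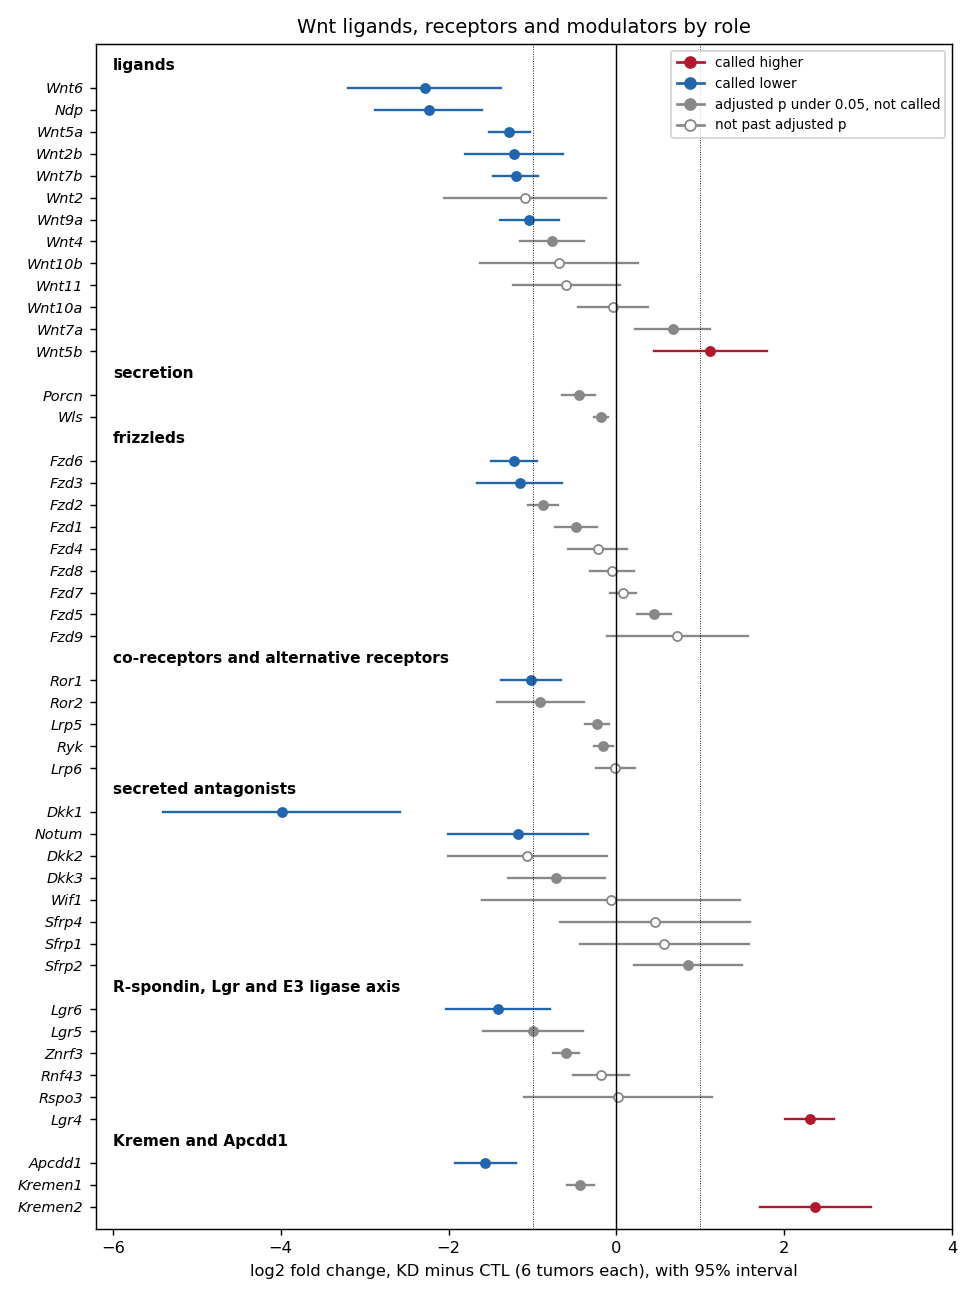
Log2 fold change (KD minus CTL, 6 tumors each) of the 46 genes on the x axis, in blocks by role on the y axis, with 95% intervals as bars and dotted lines at 1 and -1. The 13 genes called lower are blue and the 3 called higher (*Wnt5b*, *Lgr4* and *Kremen2*) are red, and grey points are genes that were not called. The point of *Dkk1* depends on the pseudocount, since its KD values are at or under the floor.

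Lgr4 and Wnt5b were 2 of the 3 genes called higher, and the bases before their start sites are shown because the *Wnt5b* sequence is the only one among the called genes matched that held the TCF/LEF core searched for, while *Lgr4* had the smallest adjusted p of the 46. Sequences are from RefSeq on GRCm38.p6, in lower case, read 5′ to 3′ on the gene's strand and end at the base before the annotated start, with the searched letters in capitals. The *Lgr4* sequence is chr2:109917397-109917646 on the + strand, and the *Wnt5b* sequence, before one of its 3 annotated starts, is chr6:119449387-119449636 on the - strand.
Lgr4: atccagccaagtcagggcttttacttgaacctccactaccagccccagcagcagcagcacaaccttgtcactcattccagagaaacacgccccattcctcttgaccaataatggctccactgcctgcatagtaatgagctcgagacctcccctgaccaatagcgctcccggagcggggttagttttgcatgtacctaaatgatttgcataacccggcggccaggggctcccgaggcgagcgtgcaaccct
Wnt5b: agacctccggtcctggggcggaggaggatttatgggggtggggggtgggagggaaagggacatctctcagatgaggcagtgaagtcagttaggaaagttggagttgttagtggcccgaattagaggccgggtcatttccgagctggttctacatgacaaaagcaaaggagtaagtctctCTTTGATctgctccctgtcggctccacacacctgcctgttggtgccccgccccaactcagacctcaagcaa
The letters were CTTTGAT, or ATCAAAG on the other strand, and in *Wnt5b* they began 71 bases before the start. Of the 46 genes, 27 had an entry in the table, with 31 windows, and 2 windows held the letters (6.45%), one of *Wnt5b* and one of *Wnt11*. Over all 32851 windows of that length the share was 3.21%. The other windows of *Wnt5b* and that of *Lgr4* did not hold these letters.

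Among the 13 ligands, 6 were called lower and 1 higher. *Wnt7b*, a ligand of the embryonic lung epithelium, had the highest level of any ligand, at 654 normalized counts per kb of exon in CTL tumors. Its values were 2893 to 3576 normalized counts in CTL tumors (median 3133) and 1038 to 1726 in KD tumors (median 1454). Genes on the opposite strand overlap some exon bases of *Wnt7b* (6.61%, *AU022754*), *Fzd5* (17.8%) and *Sfrp2* (16.1%), which bears on their values if reads were counted without strand. The *Wnt7b* groups lay well apart, and the log2 fold change was -1.20 (SE 0.13, limma adjusted p = 4.94e-06). *Wnt5a*, the best known ligand of signaling without β-catenin, had 1709 to 2038 normalized counts in CTL tumors (median 1781) and 541 to 939 in KD tumors (median 782). Every KD tumor was again below every CTL tumor, with a log2 fold change of -1.27 (SE 0.11, limma adjusted p = 1.36e-06). *Wnt5a* lies on chromosome 14 of GRCm38, from 28504750 to 28527448, where the median gene had a log2 fold change of 0.39, and with chromosome medians removed its own was -1.66.

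*Wnt9a*, a ligand of joint and skeletal development, had 258 to 389 normalized counts in CTL tumors (median 295) and 103 to 204 in KD tumors (median 149), a log2 fold change of -1.04 (SE 0.16, limma adjusted p = 0.000166). The *Wnt9a* value dropped under 1 in size without CTL replicate 6 (-0.96), without KD replicate 5 (-0.94) and without replicate 6 (-0.98). *Wnt2b*, a relative of the lung mesenchymal ligand *Wnt2*, had 83.7 to 196 in CTL tumors (median 135) and 35.8 to 91.8 in KD tumors (median 58.2). The log2 fold change of *Wnt2b* was -1.22 (SE 0.27, limma adjusted p = 0.00229). *Wnt9a* did not overlap between groups, whereas for *Wnt2b* the highest KD tumor passed the lowest CTL tumor. *Wnt6* and *Ndp* fell furthest from low levels. *Wnt6* had 32.2 to 107 normalized counts in CTL tumors (median 53.9) and 2.59 to 18.2 in KD tumors (median 12.9), a log2 fold change of -2.28 (SE 0.42, limma adjusted p = 0.000644). *Ndp* encodes norrin, a ligand of Fzd4 that is not a Wnt protein. It had 52.9 to 100.7 in CTL tumors (median 66.4) and 8.73 to 29.4 in KD tumors (median 12.3). Its log2 fold change was -2.24 (SE 0.30, limma adjusted p = 3.89e-05), and neither *Wnt6* nor *Ndp* overlapped between groups.

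*Wnt5b*, the paralog of *Wnt5a*, moved the other way. It had 13.4 to 40.6 normalized counts in CTL tumors (median 25.2) and 32.3 to 98.8 in KD tumors (median 56.7), with some overlap. The log2 fold change was 1.12 (SE 0.31, limma adjusted p = 0.0107), and it was 0.96 without KD replicate 1, the highest tumor, and 0.95 without CTL replicate 5, the lowest, so the call by size depends on each. *Wnt7a* also rose, by 0.67 on the log2 scale (SE 0.21, limma adjusted p = 0.0197), while *Wnt4*, a ligand of kidney and female tract development, fell by 0.77 (SE 0.18, limma adjusted p = 0.00305). *Wnt2*, *Wnt10a*, *Wnt10b* (-0.69, 95% interval -1.63 to 0.25) and *Wnt11* (-0.60, 95% interval -1.23 to 0.04) did not pass the threshold. Of these *Wnt2* came nearest, with a log2 fold change of -1.09 (95% interval -2.06 to -0.13, limma adjusted p = 0.0662). It would be called without KD replicate 1 (-1.35, limma adjusted p = 0.0196) or without CTL replicate 2 (-1.28, limma adjusted p = 0.0412). *Wnt10a*, in contrast, averaged 552 ± 106 normalized counts in CTL and 552 ± 193 in KD tumors (SD, n = 6 each), with a 95% interval of the log2 fold change from -0.46 to 0.37.

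Per kb of exon, the 12 Wnt genes together came to 1887 ± 115 normalized counts in CTL and 1168 ± 102 in KD tumors (SD, n = 6 each). The lowest CTL tumor had 1707 and the highest KD tumor 1349. *Wnt7b* made up 34.7% ± 3.2 of that sum in CTL tumors and 24.6% ± 4.3 in KD tumors, and *Wnt7a* 5.94% ± 2.0 and 15.1% ± 4.0. The order of the means changed accordingly. In CTL tumors it was *Wnt7b* (654), *Wnt4* (432), *Wnt5a* (234), *Wnt10a* (223) and *Wnt7a* (112), and in KD tumors *Wnt7b* (289), *Wnt4* (252), *Wnt10a* (224), *Wnt7a* (175) and *Wnt5a* (98.2 normalized counts per kb). The ranges of *Wnt7b* and *Wnt4*, and of *Wnt5a* and *Wnt10a*, overlapped in CTL tumors, and in KD tumors those of *Wnt7b*, *Wnt4*, *Wnt10a* and *Wnt7a* all overlapped. Some paralogs, in pairs picked after their values were seen, shifted against each other. The per-kb ratio of *Wnt7b* to *Wnt7a* ran from 4.20 to 8.00 in CTL tumors and from 1.20 to 2.45 in KD tumors, and that of *Wnt5a* to *Wnt5b* from 15.6 to 44.9 and from 3.06 to 7.27. Neither ratio overlapped between groups.

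**Figure D2:**
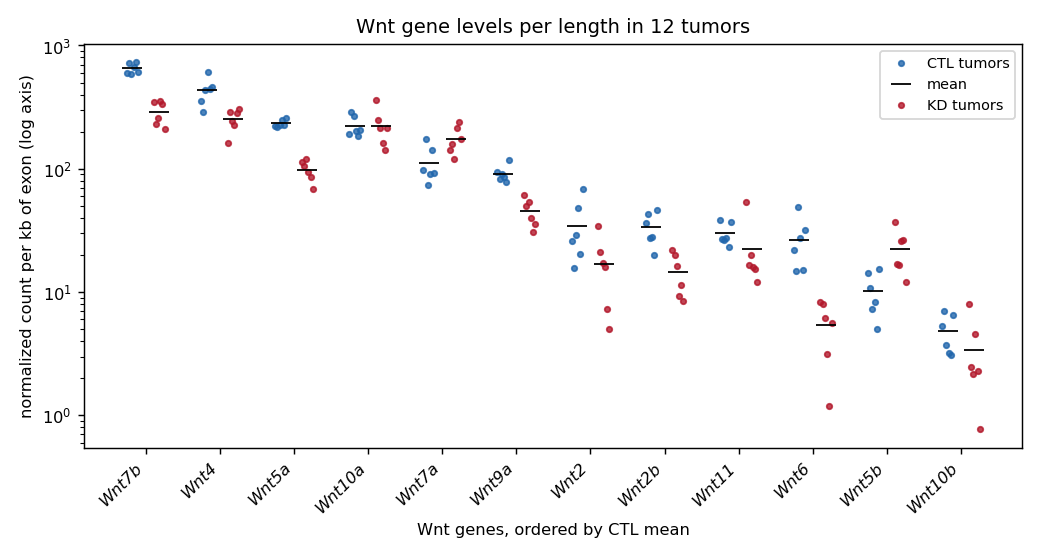
Normalized counts per kb of exon (y axis, log scale) of the 12 Wnt genes in each of 6 CTL and 6 KD tumors, with the group mean as a line, ordered by the CTL mean. *Wnt7b* leads in both groups (means 654 and 289), and *Wnt7a* (112 and 175) and *Wnt5b* (10.2 and 22.5) are the genes whose knockdown mean is clearly the higher one.

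Both genes of Wnt secretion fell a little. *Wls*, which encodes the carrier that takes Wnt proteins to the surface, had 6989 to 7752 normalized counts in CTL tumors (median 7438) and 6445 to 6789 in KD tumors (median 6493), a log2 fold change of -0.18 (SE 0.04, limma adjusted p = 0.00247). *Porcn*, which encodes the enzyme that adds the lipid, had 1430 to 1842 in CTL tumors and 1024 to 1410 in KD tumors, a log2 fold change of -0.45 (SE 0.09, limma adjusted p = 0.00127). Neither gene overlapped between groups and neither was called, since both changes were under 1.

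Of the 9 frizzleds, 2 were called, both lower. *Fzd6*, a receptor of planar polarity, had 870 to 1057 normalized counts in CTL tumors (median 969) and 302 to 536 in KD tumors (median 427), a log2 fold change of -1.22 (SE 0.13, limma adjusted p = 4.95e-06). *Fzd3*, its close relative known from axon guidance, stood at 3.79 normalized counts per kb in CTL tumors where *Fzd6* stood at 200.4. *Fzd3* had 32.2 to 70.2 normalized counts in CTL tumors (median 49.4) and 15.7 to 31.3 in KD tumors (median 19.0). Its log2 fold change was -1.15 (SE 0.24, limma adjusted p = 0.00136). All KD tumors lay below all CTL tumors in both genes. *Fzd2* fell by 0.88 on the log2 scale (SE 0.08, limma adjusted p = 2.16e-06), also without overlap. *Fzd1*, the frizzled with the highest level per kb, had 3156 to 4698 normalized counts in CTL tumors (median 3941) and 2407 to 3962 in KD tumors (median 2723), a log2 fold change of -0.48 (SE 0.12, limma adjusted p = 0.00468). The highest knockdown value of *Fzd1* was that of replicate 1, and the other 5 tumors were below every CTL tumor.

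*Fzd5* was the only frizzled that rose, with a log2 fold change of 0.45 (SE 0.10, limma adjusted p = 0.00198), from 1325 to 1687 normalized counts in CTL tumors to 1509 to 2318 in KD tumors. *Fzd4* (log2 fold change -0.22, 95% interval -0.57 to 0.13), *Fzd8* (-0.05, 95% interval -0.31 to 0.21), *Fzd7* and *Fzd9* did not pass the threshold, and the 95% interval for *Fzd7* ran only from -0.08 to 0.24 whereas that for *Fzd9*, at 9.67 normalized counts per kb in CTL tumors, ran from -0.12 to 1.57. Summed per kb, the frizzleds came to 2128 ± 172 normalized counts in CTL and 1670 ± 121 in KD tumors (SD, n = 6 each), 1887 to 2399 against 1523 to 1888, so the groups met at their edges. The per-kb ratio of *Fzd6* to *Fzd5* was 0.806 to 1.05 in CTL tumors and 0.206 to 0.483 in KD tumors, without overlap.

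**Figure D3:**
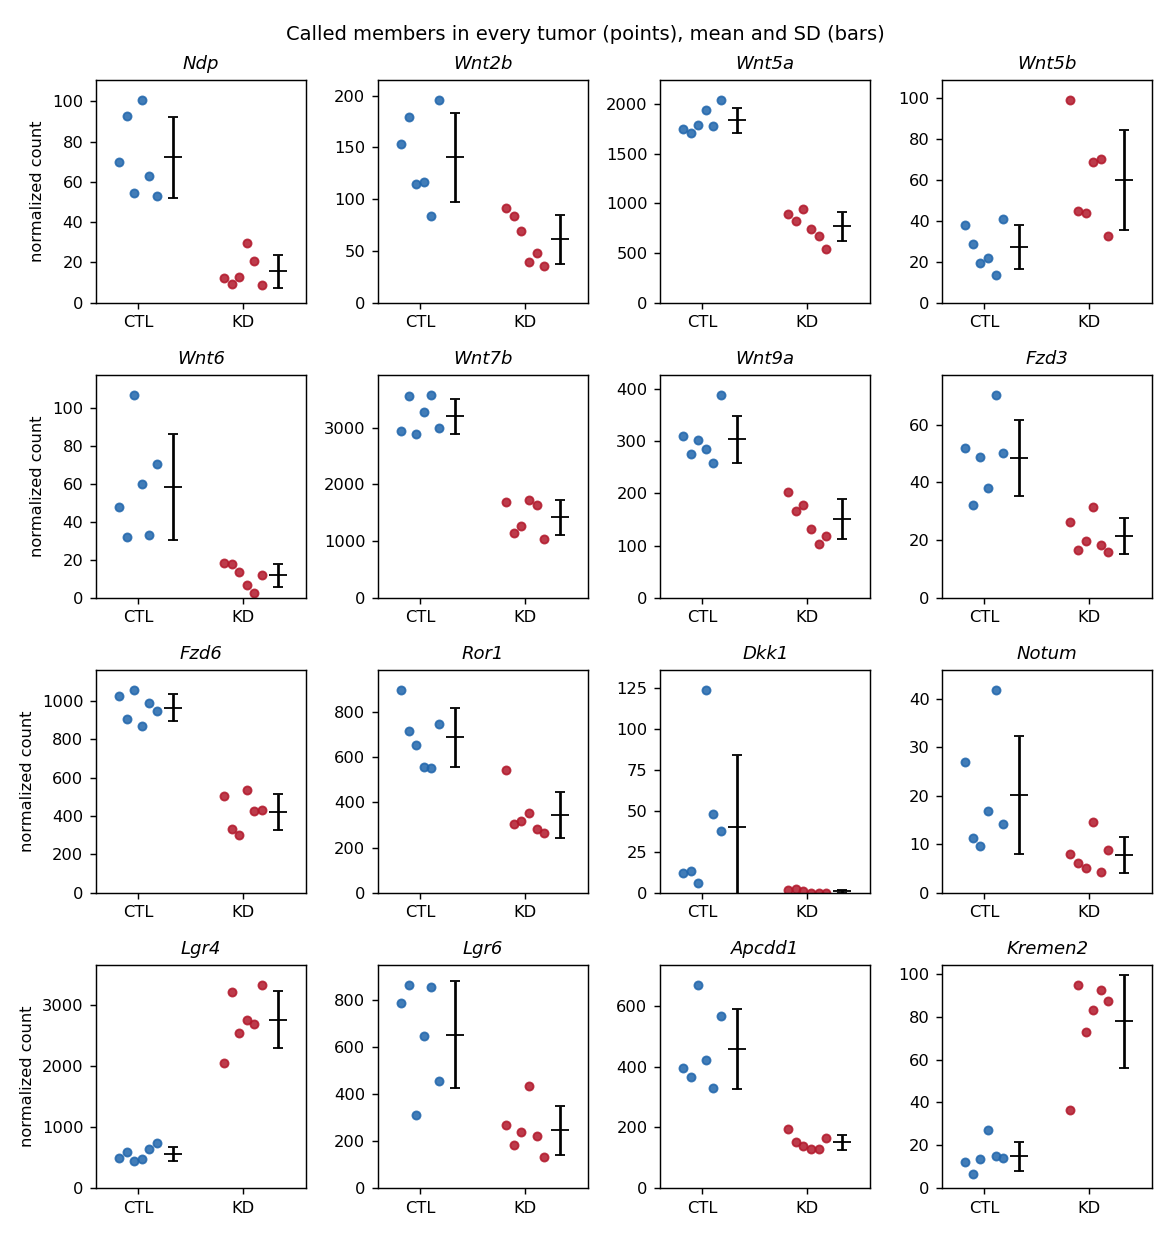
Normalized counts (y axes, from 0) of the 16 called genes in each CTL tumor (blue) and each KD tumor (red), with the mean as a line and the SD as a bar. The groups do not overlap in 12 of the 16 panels. They overlap in *Wnt2b*, *Wnt5b*, *Notum* and *Lgr6*, and *Dkk1* is at or near 0 in all KD tumors.

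Among the co-receptors and alternative receptors only *Ror1* was called. *Ror1*, a receptor for Wnt5a, had 551 to 895 normalized counts in CTL tumors (median 684) and 262 to 542 in KD tumors (median 313). The groups did not overlap, and the log2 fold change was -1.02 (SE 0.17, limma adjusted p = 0.000232), close to the limit of 1 in size, so that the call by size was lost in 6 of the 12 fits that each left out 1 tumor (CTL replicates 1, 2 and 6, KD replicates 2, 5 and 6), with values down to -0.93 and an adjusted p of at most 0.000797. Its paralog *Ror2* had 117 to 243 in CTL tumors and 78.7 to 202 in KD tumors, a log2 fold change of -0.91 (SE 0.24, limma adjusted p = 0.00746). The per-kb ratio of *Ror1* to *Ror2* was 2.15 to 3.48 in CTL tumors and 1.91 to 3.06 in KD tumors and overlapped. *Lrp5*, the co-receptor with the highest level per kb, had 10732 to 11986 normalized counts in CTL tumors (median 11292) and 8198 to 10852 in KD tumors (median 9613), a log2 fold change of -0.23 (SE 0.07, limma adjusted p = 0.0115). *Lrp5* lies on chromosome 19, whose genes had a median log2 fold change of -0.35, and with chromosome medians removed its value turned to 0.12 (limma adjusted p = 0.169). *Ryk* fell by 0.16 on the log2 scale (SE 0.05, limma adjusted p = 0.0337). *Lrp6* did not pass the threshold, with a 95% interval from -0.25 to 0.22. The per-kb ratio of *Lrp5* to *Lrp6* was 3.89 to 6.18 in CTL tumors and 3.25 to 5.18 in KD tumors and overlapped.

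Of the 8 secreted antagonists, 2 were called lower and 0 higher. *Dkk1*, which blocks Lrp5 and Lrp6 and is itself a known β-catenin target, had 5.83 to 124 normalized counts in CTL tumors (median 25.6). In KD tumors it was at 0 in 3 tumors and at 1.04, 2.02 and 2.08 in the others, all at or under the floor of 3 reads. *Dkk1* lies on chromosome 19 from 30545863 to 30549665. The knockdown floor averages 2.91 normalized counts, so *Dkk1* was at least 13.8-fold lower (limma adjusted p = 0.000249), with no overlap. Without CTL replicate 4, the highest tumor, *Dkk1* was at least 8.04-fold lower. *Notum*, an enzyme that removes the lipid from Wnt proteins, had 9.72 to 41.8 normalized counts in CTL tumors (median 15.5) and 4.32 to 14.7 in KD tumors (median 7.16). The groups overlapped, and the log2 fold change was -1.17 (SE 0.39, limma adjusted p = 0.0259). Leaving out 1 tumor ended the *Notum* call in 4 of the 12 fits, without CTL replicate 1 (adjusted p = 0.0609), without CTL replicate 5 (adjusted p = 0.0600), without KD replicate 3 (adjusted p = 0.0525) and without replicate 5 (adjusted p = 0.0565). With the replicate number as a block its adjusted p from limma was 0.0522. The antisense gene *Notumos* overlaps 29.4% of the exon bases of *Notum*, and the sources name no strand setting, so reads of these genes cannot be told apart.

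*Dkk3*, a divergent Dickkopf protein with little known action on Lrp5 and Lrp6, had the highest level of the antagonists per kb in CTL tumors. It had 605 to 1188 normalized counts in CTL tumors (median 927) and 269 to 1114 in KD tumors (median 584), a log2 fold change of -0.72 (SE 0.27, limma adjusted p = 0.0454). *Dkk2* did not pass, at -1.06 (95% interval -2.01 to -0.12, limma adjusted p = 0.0678), but it would be called without KD replicate 1 (-1.35, limma adjusted p = 0.0128), without CTL replicate 3 (-1.33, limma adjusted p = 0.0207) and with the replicate number as a block (limma adjusted p = 0.0398). *Sfrp2*, a stromal Wnt-binding protein, rose by 0.85 on the log2 scale (SE 0.30, limma adjusted p = 0.0348). *Sfrp1*, which led the antagonists per kb in KD tumors, had 408 to 948 normalized counts in CTL tumors (median 754) and 403 to 4539 in KD tumors (median 866). The mean of *Sfrp1* rested on replicates 1 and 3, at 4539 and 1710, while the other 4 tumors lay between 403 and 1003, and it did not pass the threshold (log2 fold change 0.57, 95% interval -0.44 to 1.58, limma adjusted p = 0.358). *Sfrp4* (log2 fold change 0.46, 95% interval -0.68 to 1.59) and *Wif1* (-0.07, 95% interval -1.61 to 1.48) did not pass either, and their highest value was likewise in KD replicate 1. The 3 Sfrp genes summed per kb to 315 ± 72.0 normalized counts in CTL and 625 ± 453 in KD tumors (SD, n = 6 each).

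The smallest adjusted p of the 46 genes was in the R-spondin axis. *Lgr4* (ENSMUSG00000050199), a receptor for R-spondins, lies on chromosome 2 of GRCm38 from 109917647 to 110014257. It had 446 to 740 normalized counts in CTL tumors (median 534) and 2048 to 3325 in KD tumors (median 2716), so the means differed by a factor of 4.92. The lowest KD tumor was well above the highest CTL tumor, and the log2 fold change was 2.30 (SE 0.14, limma adjusted p = 4.42e-08, exact two-sided permutation p = 0.00216, the smallest that the 924 arrangements of 6 and 6 tumors allow). That permutation p follows from the lack of overlap alone, and 17 of the 46 genes reached it. *Lgr6*, another receptor of the same family, went the other way, with 308 to 861 normalized counts in CTL tumors (median 715) and 132 to 432 in KD tumors (median 228). Its groups overlapped, and the log2 fold change was -1.41 (SE 0.29, limma adjusted p = 0.00135). *Lgr5*, a stem cell marker of the gut and a β-catenin target, had 149 to 321 in CTL tumors (median 273) and 69.0 to 267 in KD tumors (median 123), a log2 fold change of -0.99 (SE 0.28, limma adjusted p = 0.0103).

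*Lgr4* stood at 95.4 normalized counts per kb on average in CTL tumors and at 469 in KD tumors, while *Lgr6*, nearly level with *Lgr4* in CTL tumors, stood at 35.7 in KD tumors. The per-kb ratio of *Lgr4* to *Lgr6* was 0.716 to 1.90 in CTL tumors and 7.41 to 29.4 in KD tumors, and that of *Lgr4* to *Lgr5* was 2.62 to 7.38 and 13.4 to 84.1. *Lgr4* thus made up 44.8% ± 8.1 of the Lgr sum in CTL tumors and 90.2% ± 4.3 in KD tumors (SD, n = 6 each). The sum itself was 216 ± 37.9 and 519 ± 69.4 normalized counts per kb. *Znrf3*, a ligase that removes frizzled receptors and is induced by β-catenin, had 483 to 601 normalized counts in CTL and 325 to 381 in KD tumors, without overlap, a log2 fold change of -0.60 (SE 0.07, limma adjusted p = 1.8e-05). Its partner *Rnf43* did not pass the threshold, at -0.18 (95% interval -0.52 to 0.15). *Rspo3*, the one R-spondin measured, had 6.17 to 17.9 in CTL tumors and 2.59 to 47.0 in KD tumors, with a 95% interval of the log2 fold change from -1.10 to 1.14.

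*Kremen2* and *Apcdd1* gave the remaining calls. *Kremen2* (ENSMUSG00000040680), a Dickkopf receptor that takes Lrp6 off the surface, had 6.63 to 26.9 normalized counts in CTL tumors (median 13.9) and 36.3 to 94.7 in KD tumors (median 85.3). The lowest knockdown value was that of replicate 1, still above every CTL tumor, and the log2 fold change was 2.37 (SE 0.31, limma adjusted p = 3.4e-05). The gene *9530082P21Rik*, on the opposite strand and also measured, overlaps 9.42% of the exon bases of *Kremen2*. *Apcdd1*, a membrane-bound inhibitor that binds Wnt proteins and Lrp5, had 329 to 669 normalized counts in CTL tumors (median 410) and 129 to 194 in KD tumors (median 146), without overlap. Its log2 fold change was -1.56 (SE 0.17, limma adjusted p = 6.63e-06). *Kremen1* had 1834 to 2250 in CTL tumors (median 1943) and 1311 to 1803 in KD tumors (median 1425), a log2 fold change of -0.43 (SE 0.08, limma adjusted p = 0.000473). The per-kb ratio of *Kremen1* to *Kremen2* was 18.7 to 88.1 in CTL tumors and 4.13 to 13.7 in KD tumors. *Kremen1* remained the one with the higher level in every tumor.

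**Figure D4:**
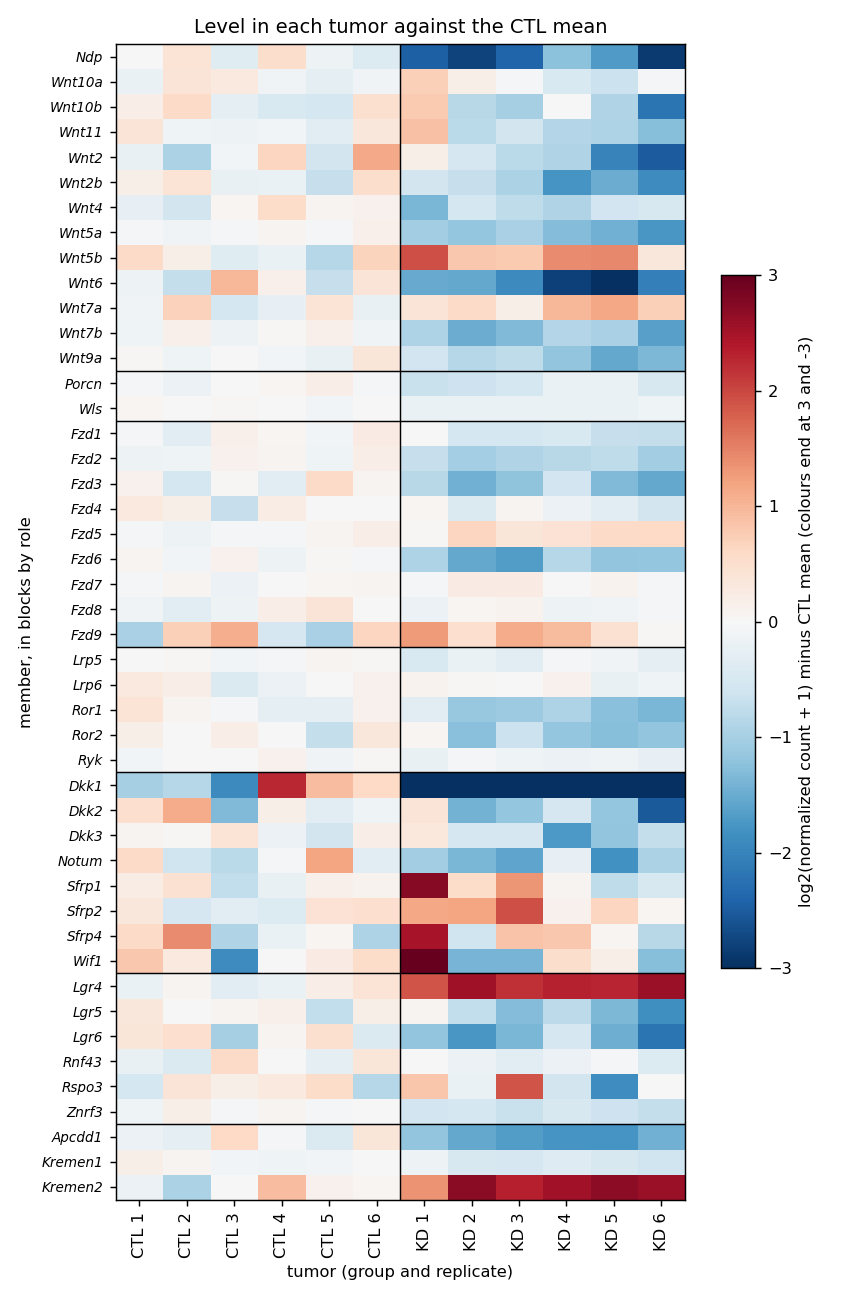
Each cell is log2(normalized count + 1) of 1 of the 46 genes (y axis, in blocks by role) in 1 tumor (x axis) minus the mean of the 6 CTL tumors, from blue (lower) to red (higher), with colours ending at 3 and -3. *Dkk1* is dark blue and *Lgr4* and *Kremen2* are red in all 6 KD tumors, and KD replicate 1 has the highest knockdown value in 22 of the 46 genes.

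The KD tumors were not alike in these genes. Replicate 1 had the highest value of the 6 KD tumors in 22 of the 46 genes, and replicate 6 had the lowest in 24. In replicate 1 the 3 genes called higher were above every CTL tumor, though that tumor was in the fit that called them. Without replicate 1, the number of called genes among the 46 rose to 19. Without replicate 5 it dropped to 13.

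Markers of other cells moved with the groups, and many Wnt genes are made by stromal cells. The summed level of 12 fibroblast genes was 173824 to 290415 normalized counts in CTL tumors, while 5 KD tumors had 82385 to 175776, with replicate 1 at 267324, so replicates 1 and 3 lay inside the CTL range. Most of that sum came from the collagen genes *Col1a1*, *Col1a2* and *Col3a1* (CTL means 92521, 74513 and 46804), so it does not measure the number of fibroblasts. Of the 12 fibroblast genes 0 were called, against 10.2% of all genes, and their median log2 fold change was -0.54. At an adjusted p under 0.05 (limma) 4 fell, against 20.7% of all genes, and 1 rose, against 21.1%. Those that fell were *Col1a1*, *Col1a2*, *Thy1* and *Fbln1*, and *Dpt* rose. *Col3a1*, *Dcn*, *Lum*, *Pdgfra*, *Pdgfrb*, *Postn* and *Fap* did not pass the threshold. In replicate 1, 12 of the 13 genes called lower were below every CTL tumor, *Wnt2b* being the exception. That tumor was in the fit that called them, and 10 of the 13 did not overlap between groups, which already sets their place. The count is therefore no separate test. Calls among the marker genes that follow are given beside the 6.2% of all genes called higher. The 7 general epithelial genes summed to 149502 to 196283 normalized counts in CTL and 215850 to 394733 in KD tumors, with 5 of 7 called higher. The 6 intestinal epithelial genes measured summed to 20269 to 25117 and 51798 to 104456, with 5 of 6 called higher, and the neutrophil genes to 305 to 380 and 767 to 1223, with 6 of 6 called higher. Skeletal muscle genes had 9 of 10 called higher, with sums of 2550 to 13002 and 5715 to 95928. Endothelial genes summed to 3291 to 4128 and 4118 to 6591, with 0 of 9 called but 7 of 9 higher at an adjusted p under 0.05 (limma), against 21.1% of all genes. Schwann and nerve genes summed to 2241 to 2610 and 2635 to 3248 without overlap, with 1 of 4 called higher. Macrophage and T cell genes had 0 calls among 8 and 6 genes, and their sums overlapped between groups. Adipocyte genes had 2 of 4 called higher and lung epithelial genes 1 of 5 (*Sftpb*). Skin epidermis genes had 1 of 5 called lower (*Lor*), against 3.97% of all genes. The sums of these sets overlapped too, and that of the lung epithelial genes was 1851 to 3641 normalized counts in KD tumors. The part of these shifts in the Wnt results was not tested.

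Further genes of the pathway were read from lists set up for comparison, beside a background of 10.2% of all genes called. The 33 genes that carry the signal inside the cell held 0 called higher and 2 called lower, with a median log2 fold change of -0.20. The called ones were *Tle2*, a TCF co-repressor (-1.01, limma adjusted p = 0.000279), and *Dixdc1*, a positive regulator that acts with Dishevelled (-1.09, limma adjusted p = 1.41e-06). *Ctnnb1*, which encodes β-catenin, averaged 42830 normalized counts in CTL and 43756 in KD tumors, and *Apc* 2743 and 2575, and neither passed the threshold.

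Of 14 common β-catenin targets, feedback regulators and others, 13 were measured and 4 were called, all lower, where 3.97% of all genes were called lower. Their median log2 fold change was -0.47 over the 13 measured. *Axin2*, the target most often used as a readout of the pathway, averaged 387 ± 80.8 normalized counts in CTL and 132 ± 70.8 in KD tumors (SD, n = 6 each), and the log2 fold change was -1.66 (limma adjusted p = 0.000235). The *Axin2* groups overlapped, with KD replicate 1 at 257 and CTL replicate 5 at 249. *Tcf7*, a TCF factor (-2.10, limma adjusted p = 9.41e-08), *Tnfrsf19*, a TNF receptor family member (-2.32, limma adjusted p = 0.000515), and *Prox1*, a homeobox factor (-2.88, limma adjusted p = 2.3e-05), fell further. The groups overlapped in *Tnfrsf19*, with KD replicate 1 at 439 and the lowest CTL tumor at 348, but not in *Tcf7* and *Prox1*. *Nkd1* and *Ccnd1* fell by less than 1 on the log2 scale. *Myc*, *Cd44*, *Sox9*, *Lef1*, *Sp5*, *Nkd2* and *Bambi* did not pass the threshold. The study itself reported changes in the other direction in this tumor model. By staining, active β-catenin protein was higher in knockdown tumors. By qRT-PCR, so were the targets *Dll1*, *Egfr*, *L1cam*, *Mmp7*, *Ret* and *Vegfa*, none of which is in the list used here. RNA levels do not measure the amount of active β-catenin protein.

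The planar polarity list had 19 of its 20 genes measured, with 1 called higher, 2 called lower and a median of -0.24. *Prickle1*, a core polarity protein (-1.90, limma adjusted p = 1.73e-05), and *Dact2*, a Dishevelled binder (-1.81, limma adjusted p = 4.13e-06), fell. *Celsr3*, a cadherin of axon tracts, rose from a low level of 8.06 normalized counts in CTL tumors (1.26, limma adjusted p = 0.0467). Other extracellular and membrane modulators, 19 of 23 measured, held 0 called higher and 6 called lower, with a median of -0.56. The largest changes were in *Trabd2b*, a Wnt protease (-2.23, limma adjusted p = 0.00072), *Cpe*, a carboxypeptidase of secretory granules (-1.90, limma adjusted p = 3.82e-07), *Draxin*, a secreted antagonist (-1.36, limma adjusted p = 0.00517), and *Tpbg*, a membrane inhibitor (-1.09, limma adjusted p = 2.09e-06).

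**Figure D5:**
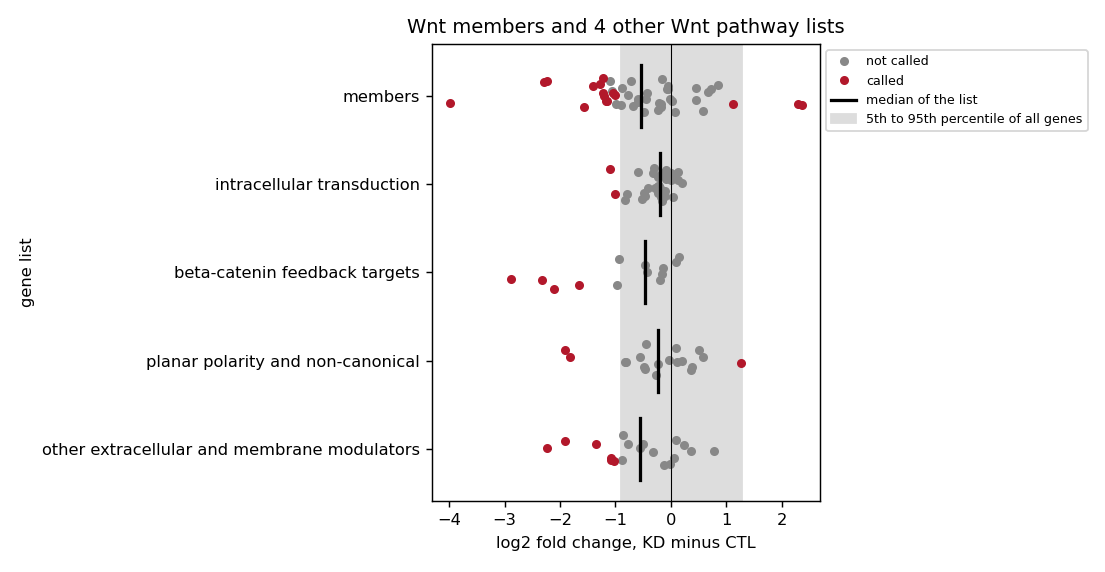
Log2 fold change (x axis) of the 46 Wnt genes, labelled members, and of the genes of 4 other pathway lists (y axis), with called genes in red, others in grey, the median of each list as a black line and the range from the 5th to the 95th percentile of all genes (-0.90 to 1.28) shaded. The medians of all 5 lists lie below 0, from -0.56 to -0.20, and called genes lie on both sides of 0 only among the 46 genes and the planar polarity list.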

How the data were processed

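Total RNA of 6 CTL and 6 *Filip1l*-knockdown (KD) allograft tumors was enriched for poly(A) RNA and sequenced as paired reads. Per the labels and the methods of the study, the authors trimmed reads with Trimmomatic 0.36, aligned them with STAR 2.5.2b and counted unique hits per gene with featureCounts (Subread 1.5.2), and the submitters' processing notes name the build mm10. The authors then divided the counts by DESeq2 size factors, so the deposited values are a normalized signal and not whole counts, without correction for the length of a gene. A strand setting is not given in the sources used here. Symbols and exon lengths came from GENCODE vM21 on GRCm38, which held 15655 of the 15687 identifiers (99.8%). All 12 tumors were mapped by their labels, and 0 columns were left unused. The labels do not name each animal, so p-values measure the spread between these tumors. They do not cover differences between the selected cell populations injected, which cannot be told apart here from the knockdown. The median log2 fold change was 0.39 on chromosome 14, -0.35 on chromosome 19 and -0.19 on chromosome 8. On the other chromosomes it lay between -0.040 and 0.047.

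Values were analysed as log2(normalized count + 1), and fold changes are on that scale, which understates changes of genes with low values. A filter at a mean of 5 removed 0 genes, the lowest mean being 9.28. Groups were compared over all genes with limma 3.58.1 (mean-variance trend) in R 4.3.3, with Benjamini-Hochberg adjustment over 15687 genes. Values of each tumor are whole multiples of a step of 0.865 to 1.49, taken as the value of 1 read, which gave the read totals and the floor of 3 reads (on average 3.15 normalized counts in CTL and 2.91 in KD tumors). Such floors cover counting error only. In 3 tumors the step is close to 1 (1.00 in CTL replicate 1, 0.997 in CTL replicate 4 and 1.01 in KD replicate 1). The reads were used for totals and floors only, and tests on counts were not run. An exact two-sided permutation test over 924 arrangements served for single genes.

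The 46 genes, the pathway and marker lists and the tests were chosen with earlier results of these data known. Every one of the 46 genes is accounted for. Ranges are given for called genes and for the gene with the highest level per kb of exon in each role. Of other lists, at most 4 called genes are named, and genes named beyond that rule, such as *Fzd2*, *Ror2*, *Znrf3*, *Ctnnb1* and *Myc*, were chosen after their values were seen. Alternatives were pseudocounts of 0.5 and 8, a filter at a mean of 20 or none, rescaling by total or by the 75th percentile, no trend, removal of chromosome medians (genes with a mean of at least 50), the replicate number as a block, and leaving out each tumor in turn. The steps were tested on simulated data. Sequences before start sites came from a RefSeq table on GRCm38.p6. Python 3.11.15 and matplotlib 3.10.9 drew the figures.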

Additional observations from a re-analysis of the deposited data

Results flagged for a closer look

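In each of the 46 genes and both groups, the most extreme of the 6 tumors was compared with its nearest neighbor. Of the 92 groups tested, 10 held a tumor whose distance to the next took up more of the range than Dixon's 95% limit allows, where chance gives about 4.6 (1 in 20). KD replicate 1 was that tumor in 8 of the 10. It was the highest knockdown tumor in *Sfrp1* (4539 normalized counts, next 1710), *Fzd1* (3962, next 2855), *Ror1* (542, next 354), *Sfrp4* (353, next 115), *Wnt11* (224, next 83.5), *Ror2* (202, next 123) and *Wif1* (86.7, next 14.7), and the lowest in *Kremen2* (36.3, next 73.0). The others were *Wls* in KD replicate 6 (6789 normalized counts, next 6513) and *Dkk1* in CTL replicate 4 (124, next 47.8).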

How the results depend on the processing

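Of the 16 called genes, 11 kept the call in all 9 alternatives that kept all tumors and all 12 fits that left out 1. The number called among the 46 ran from 12 (pseudocount 8) to 17 with all tumors kept, and from 13 (without KD replicate 5) to 19 (without KD replicate 1) with 1 left out. Over all genes it ran from 1352 to 1605 and from 1513 to 1712. At a pseudocount of 8 the change was under 1 in size for *Fzd3* (-0.94), *Wnt5b* (0.94), *Notum* (-0.76) and, just so, *Ror1* (adjusted p = 0.000235). *Lgr5* (-0.99) passed -1 under both rescalings and with chromosome medians removed (to -1.03 at most), without CTL replicate 5 (-1.14) and without KD replicates 1 (-1.21), 2 (-1.04) or 4 (-1.03). *Ror2* passed it without CTL replicate 5 (-1.05) or KD replicate 1 (-1.10), and *Sfrp2* passed 1 without KD replicate 6 (1.01). The genes of signal transduction inside the cell had 2 calls, 1 at a pseudocount of 8, and 1 to 2 with 1 tumor left out.

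Direction reversed in genes near 0 and in *Lrp5* (-0.23). *Lrp5* was 0.12 and *Lrp6* 0.013 with chromosome medians removed, *Rspo3* was -0.014 when rescaled to the same total, and *Wif1* was 0.074 at a pseudocount of 8. With 1 tumor left out, *Lrp6* ran from -0.10 to 0.045, *Rspo3* from -0.35 to 0.40, *Wif1* from -0.68 to 0.20, *Wnt10a* from -0.20 to 0.072 and *Fzd8* from -0.12 to 0.026. *Lrp5* had a limma adjusted p of 0.0115 in the main fit and 0.169 with chromosome medians removed. In the other genes of the 6, no adjusted p passed the threshold under these settings. With the replicate number as a block, 16 of the 46 genes were called, with *Dkk2* gained and *Notum* lost. Tumors with the same number were not alike after removal of the group means (correlations -0.269 to 0.0990), and 0 of the 12 were closest to their own number in the other group. A weak shared factor would not show in this way, and the labels do not say whether the numbers mark a pairing. Depth limits *Dkk1*, whose knockdown values lie under the floor of 3 reads.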
